A study of Nothobranchius furzeri with 15 samples.

Results

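In skin of the turquoise killifish (Nothobranchius furzeri), 50 genes were higher in every sample given 150 pM rotenone than in every sample given 15 pM rotenone or the solvent alone. They were chosen by that pattern, from gene counts scaled to CPM (each library's counts brought to a common total) with edgeR's TMM factors, which put libraries of different make-up on one scale. A gene entered the set when its mean over the 15 samples was at least 1 CPM, when it was not among the 100 most abundant genes of solvent skin, and when its lowest 150 pM value lay above its highest value in the other 10 samples. Of 26739 genes in the files, 16402 passed the limits on abundance and could have entered, and 50 of these did, which is 0.305%.

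The study was an RNA-seq experiment on whole skin of 9-week-old GRZ males, an inbred and short-lived laboratory strain. The 3 groups held 5 samples each: fish given dimethyl sulfoxide (DMSO), the solvent, fish given 15 pM rotenone, and fish given 150 pM rotenone. How long and by which route the fish were exposed is not known here. Replicates carry numbers in order of registration, and the labels do not say that each sample is a separate fish. A p-value thus reflects the spread among these 15 samples, part of which may be technical.

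Rotenone blocks complex I of the mitochondrial respiratory chain, the enzyme that takes electrons from NADH and passes them to ubiquinone. Strong inhibition lowers ATP production and raises reactive oxygen species, while mild inhibition is studied in short-lived animals as a stress that cells may adapt to through changed gene expression. Fish skin consists of a living, mucus-secreting epidermis over a collagen-rich dermis with scales, pigment cells, nerves and immune cells, so a change in whole skin can come from any of these. Fewer cells of a type and less RNA per cell cannot be told apart in such samples. The identifiers of the files are not paired with gene names, and 0 of the 26739 matched the RefSeq gene table used here, so the function of the 50 genes is not known here and the tissue could not be checked against marker genes. Identifiers are printed for 4 of the genes, and the rest are described by their rank or their values.

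The libraries were of similar depth, with total counts from 21857670 to 28314659. The 20 most abundant genes took 15.9% of all counts in 15 pM replicate 4 and 18.1% in 15 pM replicate 1, against 24.8% to 33.4% in the other 13 samples, so these 2 libraries differ in make-up from the rest. Of the 50 genes, all entered the tests across 18253 genes. Their counts had a median of 498.5 per sample and a lowest value of 5.

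The gene with the widest gap was Nfu_g_1_014394. It had 40.3, 34.5, 31.0, 33.9 and 24.4 CPM in the 5 DMSO samples, 40.4, 47.5, 46.8, 19.9 and 32.3 CPM in the 15 pM samples, and 65.4, 69.8, 60.2, 62.1 and 60.2 CPM in the 150 pM samples. All 150 pM samples lay close together and above the rest, while the 15 pM samples overlapped the DMSO samples on both sides. The gap ratio, which is the lowest 150 pM value divided by the highest of the other 10, was 1.27. Its mean was 63.5 ± 4.09 CPM at 150 pM and 32.8 ± 5.80 CPM in DMSO (SD, n = 5 each), or 1.95-fold (log2 fold change 0.97, standard error 0.20). Under each of the 3 other library scalings that were tried, its 150 pM samples still lay above the other 10.

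The second widest gap belonged to Nfu_g_1_009308, a gene of low abundance. It had 4.44, 6.44, 4.98, 4.94 and 4.86 CPM in DMSO, 5.04, 6.04, 5.45, 2.32 and 5.65 CPM at 15 pM, and 7.76, 8.05, 8.27, 8.31 and 8.08 CPM at 150 pM. The 150 pM samples differed by little among themselves, with a mean of 8.09 ± 0.217 CPM against 5.13 ± 0.762 CPM in DMSO (SD, n = 5 each; log2 fold change 0.67, standard error 0.20). The lowest of all values was in 15 pM replicate 4, one of the libraries of unusual make-up.

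**Figure D1:**
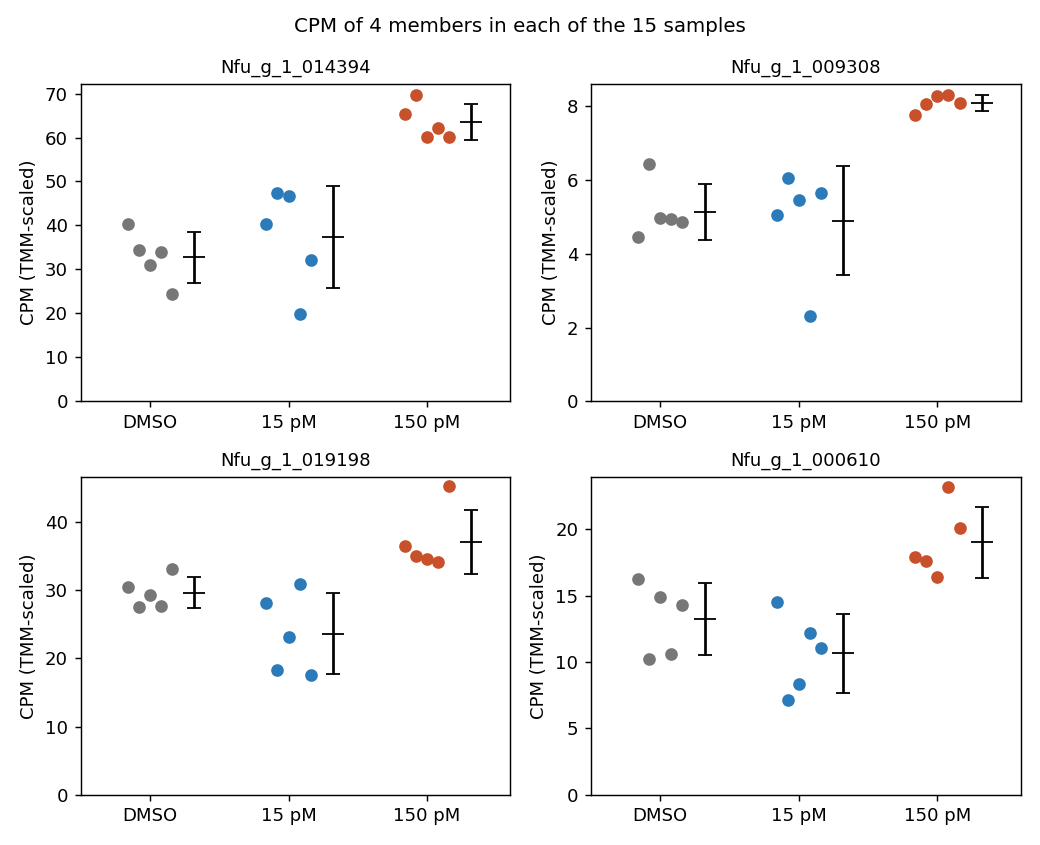
CPM (TMM-scaled) of 4 of the 50 genes, 1 point per sample, for DMSO, 15 pM and 150 pM rotenone; the black marks show the mean and SD of 5 samples. In the upper 2 panels, the genes with the widest gaps, the 150 pM points lie between 60.2 and 69.8 CPM and between 7.76 and 8.31 CPM, above all others; in the lower 2 panels the 15 pM mean is below the DMSO mean.

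The gene with the third widest gap was among the most abundant of the set. It had 120.1, 97.1, 84.4, 100.9 and 89.9 CPM in DMSO, 125.6, 104.2, 116.5, 108.4 and 124.1 CPM at 15 pM, and 162.5, 150.7, 169.0, 188.5 and 202.2 CPM at 150 pM. Against DMSO the log2 fold change was 0.84 (standard error 0.12). The 15 pM samples of this gene were at the upper end of the DMSO range or slightly above it, and all 150 pM samples were well above both.

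The next gene had 11.3, 14.2, 11.6, 13.2 and 9.61 CPM in DMSO, 16.6, 10.7, 11.6, 9.47 and 17.0 CPM at 15 pM, and 22.9, 20.8, 19.8, 26.3 and 23.7 CPM at 150 pM. The one after it, with little spread in DMSO and at 150 pM, had 23.0 to 25.4 CPM in DMSO, 18.7 to 28.3 CPM at 15 pM and 31.6 to 35.2 CPM at 150 pM. The sixth widest gap was that of a gene of 2034 bases, short for this set, which had 10.48 to 14.8 CPM in DMSO, 9.28 to 18.4 CPM at 15 pM and 20.5 to 24.6 CPM at 150 pM. In all 3 the DMSO and 15 pM ranges overlapped. The gap was narrower for most of the set. The ratio had a median of 1.04, it was over 1.1 for 7 genes, and the gap was under 1% for 12.

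At the edge of the set, the last gene inside had a lowest 150 pM value of 30.3 CPM, from 767 counts, and a highest other value of 30.3 CPM, from 846 counts, with a ratio of 1.001. Just outside, a gene with 15.4 CPM on both sides of the gap missed the set by a ratio of 0.999999, and 61 genes had ratios from 0.95 to 1. Another 7 genes had the pattern but a mean under 1 CPM, the nearest of them with 0.858 CPM. Of the 100 most abundant genes of DMSO skin, 0 had the pattern. The exact Poisson intervals (95%) of the 2 samples at the gap were apart for 3 of the 50 genes and overlapped for 47. These intervals cover counting error only.

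**Figure D2:**
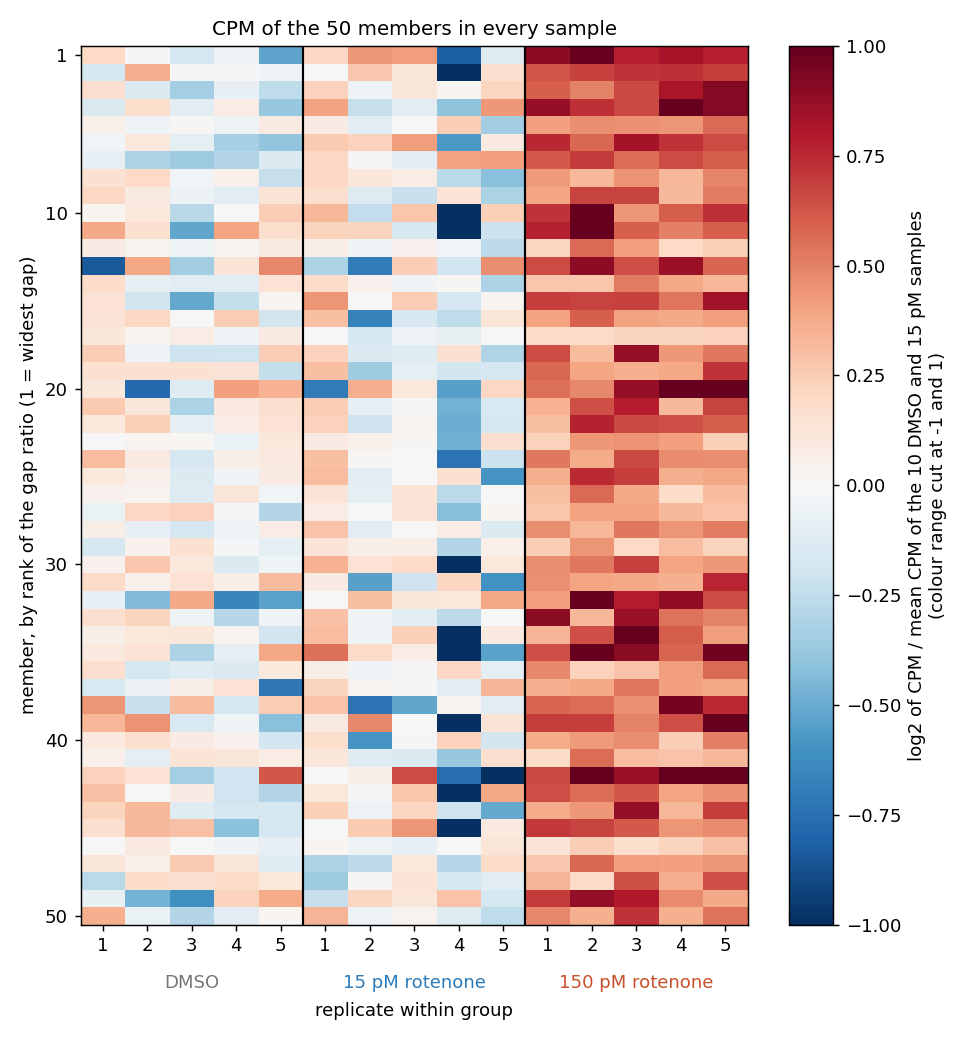
CPM of each of the 50 genes (rows, widest gap at the top) in each sample (columns, replicates 1 to 5 of DMSO, 15 pM and 150 pM rotenone), as the log2 of the ratio to the gene's mean over the 10 DMSO and 15 pM samples. The 150 pM columns are higher throughout, as the choice of the genes requires, and the lowest values gather in 15 pM replicate 4, which was the lowest of the 10 other samples for 20 genes.

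Because the rule used both comparisons of 150 pM, the sizes of these differences describe the set and test nothing. At 150 pM against DMSO the log2 fold change had a median of 0.52, from 0.17 to 1.03, where the median over all 18253 tested genes was -0.0038. At 150 pM against 15 pM the median was 0.61, from 0.23 to 1.09, against -0.03 over all genes. The changes were thus modest, since 29 of the 50 genes exceeded 0.5 against DMSO, 10 exceeded 0.75 and 1 exceeded 1. The one above 1 was of low abundance, with 1.37, 2.36, 1.76, 1.90 and 1.61 CPM at 150 pM, against 0.967, 0.753, 1.33, 0.653 and 0.707 CPM in DMSO. The smallest change was that of the longest gene of the set, with 27.96, 27.88, 28.59, 28.60 and 28.75 CPM at 150 pM, against 26.47, 24.96, 25.73, 23.79 and 26.14 CPM in DMSO. Its samples differed little within each group.

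By edgeR's quasi-likelihood test, with p-values adjusted by Benjamini-Hochberg over all genes and a threshold of 0.05, 3 of the 50 genes were called higher at 150 pM than in DMSO, and 0.0603% of all tested genes were. Against 15 pM, 14 were called higher, and 0.8% of all tested genes were. The rule used both comparisons, so a larger share among the 50 genes follows from their choice and supports nothing. The first list lay within the second but for 1 gene, since 2 genes were called in both. The calls against DMSO were the gene with the third widest gap, the gene with the seventh widest, and a gene with 69.1, 68.5, 68.8, 61.9 and 76.5 CPM at 150 pM, against 47.2, 37.7, 30.01, 36.2 and 43.4 CPM in DMSO. The pair of genes with the widest gaps was not called against DMSO.

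These counts moved with the libraries in the fit. Without 15 pM replicate 4, 19 of the 50 genes were called higher than in DMSO (0.959% of all genes tested) and 22 higher than at 15 pM (1.39%). Without 150 pM replicate 5, 0 were called in either comparison (0.00541% and 0.0433%). Without DMSO replicate 2, 0 were called against DMSO (0.0108%) and 6 against 15 pM (0.33%). In these 3 fits the median log2 fold change of the set against DMSO stayed between 0.51 and 0.52, while the number of calls changed. With any 1 sample left out, this median ran from 0.47 (without DMSO replicate 3) to 0.55 (without 150 pM replicate 4). The 50 genes were fixed from all 15 samples, which favours a steady median.

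The extremes were spread unevenly over the 150 pM samples, though each was the highest for some genes and the lowest for others. Of the 5 samples, replicate 2 was the highest for 18 genes, replicates 3 and 5 for 13 each, and replicates 1 and 4 for 3 each. Replicate 4 was the lowest for 17 genes, replicate 1 for 13, replicate 2 for 10, replicate 3 for 7 and replicate 5 for 3. Of the 10 DMSO and 15 pM samples, 15 pM replicate 1 was the highest, and so set the ceiling, for 13 genes. For 8 genes it was 15 pM replicate 5, for 6 DMSO replicate 1, and each of the rest did so for 5 or fewer. Relative to the DMSO mean, the median log2 difference over the 50 genes was 0.48, 0.52, 0.57, 0.40 and 0.52 in 150 pM replicates 1 to 5, against 0.09, 0.04, -0.07, -0.03 and 0.03 in DMSO replicates 1 to 5. The coefficient of variation within the 150 pM group had a median of 10.02% over the 50 genes and 16.8% over all genes that could have entered, a difference that the rule itself favours. The 50 genes also varied less in the other groups, with medians of 12.6% against 14.2% in DMSO and 17.8% against 29.5% at 15 pM. The rule favours this as well, since a single high value in either group kept a gene out. The 50 genes were also more abundant, with a median of 20.3 CPM against 13.2 CPM. These medians are thus a description only.

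The 50 genes spanned a wide range of abundance. Their mean over all samples ran from 1.03 to 151.7 CPM with a median of 20.3 CPM, against a median of 13.2 CPM for all genes that could have entered. There were 7 genes under 5 CPM, 34 from 5 to 50 CPM and 9 above. Per kilobase of gene length, which allows levels to be compared between genes, the 150 pM means ran from 0.161 to 36.8 CPM per kilobase with a median of 5.65, against a median of 3.84 in DMSO. On that scale the highest 150 pM mean was that of a gene of 2490 bases. By CPM without regard to length, the highest gene of the set had 166.5, 204.2, 225.8, 163.7 and 208.4 CPM at 150 pM, against 156.4, 141.2, 105.0, 139.7 and 146.3 CPM in DMSO, so that 2 of its 150 pM samples lay only just above the highest DMSO sample. No pair of the genes had consecutive identifier numbers.

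The rule used the DMSO and 15 pM values to set a common ceiling and did not compare these groups with each other. The comparison of 15 pM with DMSO is thus not independent of how the genes were chosen, and its values are given as a description. The rule set no floor for either group, and so no fixed limit on the fold change between them. Within each gene, though, the means of both groups had to lie below the 150 pM mean. The mean at 15 pM could thus exceed that in DMSO only by less than the gene's change at 150 pM against DMSO. It could fall below that in DMSO only by less than the change at 150 pM against 15 pM. These changes had median log2 values of 0.52 and 0.61. All tested genes together were not chosen in this way, and how far the choice shaped the comparison was not tested. In this comparison, 0 of the 50 genes were called changed by edgeR's quasi-likelihood test, where 1.75% of all tested genes were. The smallest adjusted p in the set was 0.0804. At an unadjusted p under 0.05 there were 2 of the 50 genes, and 21.4% of all tested genes. The DESeq2 Wald test and limma-voom with sample quality weights each called 1 gene, higher at 15 pM in both cases. These were different genes, and the methods called 8.36% and 10.6% of all tested genes. In no gene of the set did the 15 pM samples lie all above or all below the DMSO samples, which 3.67% and 3.08% of the genes that could have entered did.

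**Figure D3:**
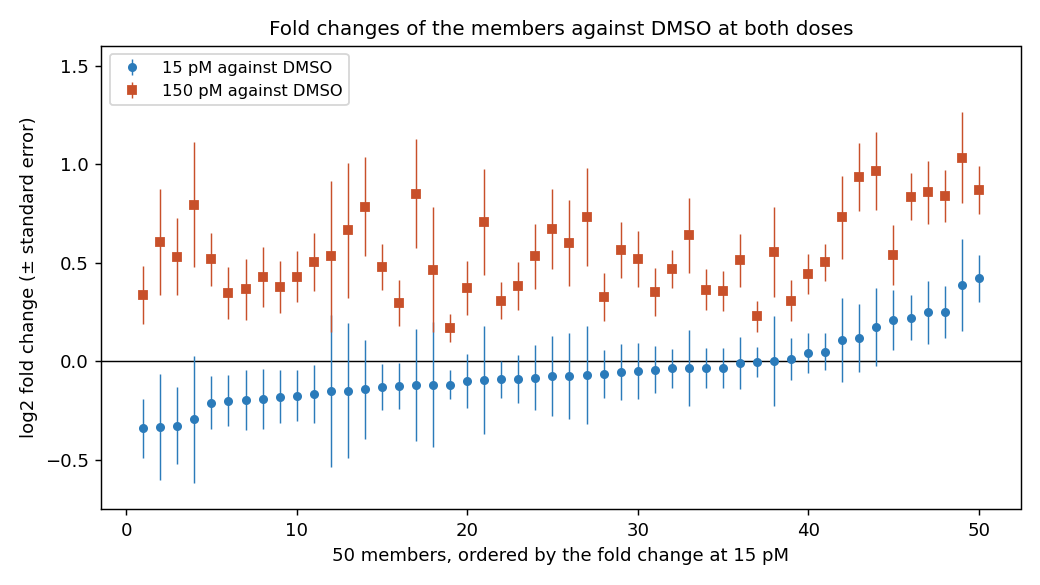
Log2 fold changes with standard errors of the 50 genes at 15 pM against DMSO (circles) and at 150 pM against DMSO (squares), ordered by the value at 15 pM; both use the same DMSO samples. The 15 pM values run from -0.34 to 0.42 and lie on both sides of 0, and the 150 pM values run from 0.17 to 1.03. The rule itself places each gene's 15 pM mean below its 150 pM mean.

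The fold changes at 15 pM were small and more often negative than positive. Their median was -0.07, from -0.34 to 0.42, with 37 genes below 0 (74%), where 50% of all tested genes were below 0 and their median was -5.53e-06. The lean varied with the libraries in the fit. Without 15 pM replicate 4 the median was -0.0038 and 26 of the 50 genes were below 0, the median over all genes then being -0.02. With 15 pM replicates 1 and 4 both left out, the other library of unusual make-up included, the median was -0.076 (-0.075 with all samples) and 29 genes were below 0, with a median of -0.03 over all genes. With any other single sample left out, 33 to 39 genes were below 0, and limma-voom, which weights libraries by quality, put 26 below 0. In 15 pM replicate 4 the 50 genes had a median log2 difference of -0.26 from the DMSO mean, against -0.04 to 0.15 in the other 15 pM samples.

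The gene with the smallest p at 15 pM was one of those above 0. It had 14.2, 12.4, 11.4, 16.2 and 16.3 CPM at 15 pM, against 11.6, 9.95, 9.61, 10.04 and 11.2 CPM in DMSO. At 150 pM it had 18.8, 19.9, 18.1, 19.3 and 18.7 CPM. Only 1 sample at 15 pM lay below the highest DMSO sample, and the group means stood in the order of the doses. The rule put 150 pM on top in every gene of the set, and this gene was picked by its p at 15 pM. By mean CPM, 15 genes of the set had 15 pM between the other groups, and 35 had it below DMSO. The order in this gene is thus a description only, and a response to dose was not tested. At 15 pM against DMSO this gene's log2 fold change of 0.42 (standard error 0.12) missed the threshold in edgeR's test (adjusted p = 0.0804). It was called by DESeq2 and, in edgeR, without 15 pM replicate 2.

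Among the genes below 0, Nfu_g_1_019198 had the smallest p. It had 28.1, 18.3, 23.1, 31.0 and 17.5 CPM at 15 pM, against 30.4, 27.6, 29.4, 27.7 and 33.1 CPM in DMSO. At 150 pM it had 36.5, 35.0, 34.6, 34.1 and 45.3 CPM. The 15 pM samples were spread widely, with replicates 1 and 4 inside the DMSO range and the others below it. The log2 fold change of -0.34 (standard error 0.15) missed the threshold in edgeR's test (adjusted p = 0.203). Over all alternatives the adjusted p ran from 0.0297 to 0.432. The lowest, at a log2 fold change of -0.61, came without replicates 1 and 4, an exclusion chosen after the data were seen; these are the samples inside the DMSO range, so leaving them out makes the difference larger by construction.

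The next was Nfu_g_1_000610, with 14.5, 7.14, 8.31, 12.2 and 11.05 CPM at 15 pM, against 16.2, 10.2, 14.9, 10.6 and 14.3 CPM in DMSO. Its 150 pM samples had 17.9, 17.6, 16.4, 23.1 and 20.1 CPM, the lowest of them just above DMSO replicate 1. At 15 pM the groups overlapped, and the log2 fold change of -0.33 (standard error 0.20) was not past the threshold (edgeR adjusted p = 0.348). In the other 2 genes with printed identifiers the log2 change at 15 pM was 0.17 ± 0.20 for Nfu_g_1_014394 and -0.08 ± 0.20 for Nfu_g_1_009308 (standard errors), both smaller than their errors. Over the set, 19 of the 50 fold changes at 15 pM were larger than their standard error. The share over all tested genes is not given here, so this count is a description only.

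The genes of the set were also long. The rule did not use length itself, but it used CPM values that carried a trend with length in some samples, given below. Lengths were read from the deposited values per kilobase and were available for all 50 genes and for all 16402 that could have entered. The 50 genes had a median length of 5794 bases, with quartiles of 3553 and 7874 bases, against a median of 2838 bases with quartiles of 1434 and 4859 bases for all genes that could have entered. Over 5000 bases long were 30 of the 50 genes (60%), against 23.9% of the genes that could have entered, and under 1500 bases long were 2 (4%), against 26.2%. The 6498 genes of like abundance, with a mean CPM between the set's quartiles, had a median of 3211 bases. This comparison over genes is a description and was noticed after the values were seen.

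**Figure D4:**
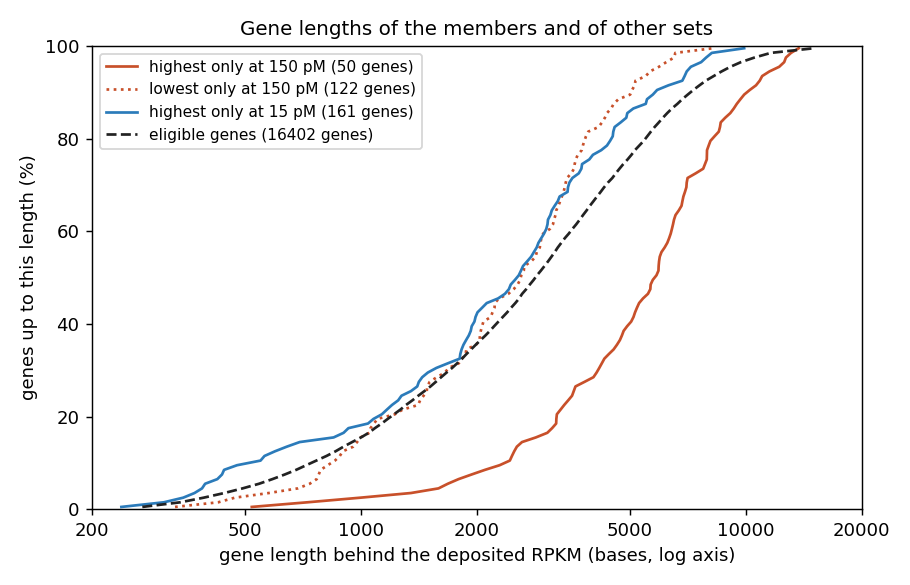
Share of genes (%) up to a given length (bases, log axis) for the 50 genes highest only at 150 pM (solid, red), the 122 lowest only at 150 pM (dotted, red), the 161 highest only at 15 pM (solid, blue) and all 16402 that could have entered (dashed). The curve of the 50 genes lies to the right of the others except at the long end, where it crosses that of all genes, with a median of 5794 bases against 2598, 2524 and 2838 bases.

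Sets cut by the same rule in other groups had shorter genes. The 122 genes lowest only at 150 pM had a median of 2598 bases, the 161 highest only at 15 pM one of 2524 bases, the 142 highest only in DMSO one of 3560 bases and the 78 lowest only at 15 pM, the next longest, one of 4253 bases. The 50 genes were also fewer than each of these sets and than the 93 genes lowest only in DMSO. The first 3 sets held 0.744%, 0.982% and 0.866% of the genes that could have entered. Within the 50 genes, the change that chose them is given by length as a description only. The shortest 17 genes, from 417 to 4298 bases, had a median log2 fold change of 0.50 at 150 pM against DMSO, the middle 16 one of 0.53, and the longest 17, from 6872 to 14029 bases, one of 0.51.

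A trend with gene length was also present among genes outside the set. In the 1636 longest of them, with a median length of 8847 bases, the median log2 difference from the DMSO mean was 0.14, 0.03, 0.25, 0.03 and 0.20 in 150 pM replicates 1 to 5, against 0.11, 0.01, -0.11, -0.03 and -0.01 in DMSO replicates 1 to 5. At 15 pM the same genes had 0.07, -0.03, -0.03, -0.14 and -0.30 in replicates 1 to 5. Long genes were thus higher in 150 pM replicates 1, 3 and 5 and lower in 15 pM replicates 4 and 5, while 150 pM replicates 2 and 4 lay within the DMSO range.

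Genes outside the set with lengths between the set's quartiles had a median difference from DMSO of -0.02, -0.02, 0.03, -0.02 and 0.02 in 150 pM replicates 1 to 5, where the 50 genes, chosen for high values in these samples, had 0.40 to 0.57. This window leaves out genes over 7874 bases. The longest genes outside the set, with a median of 8847 bases, had 0.03 to 0.25 in the 150 pM samples. The part that length plays in the set was not tested.

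**Figure D5:**
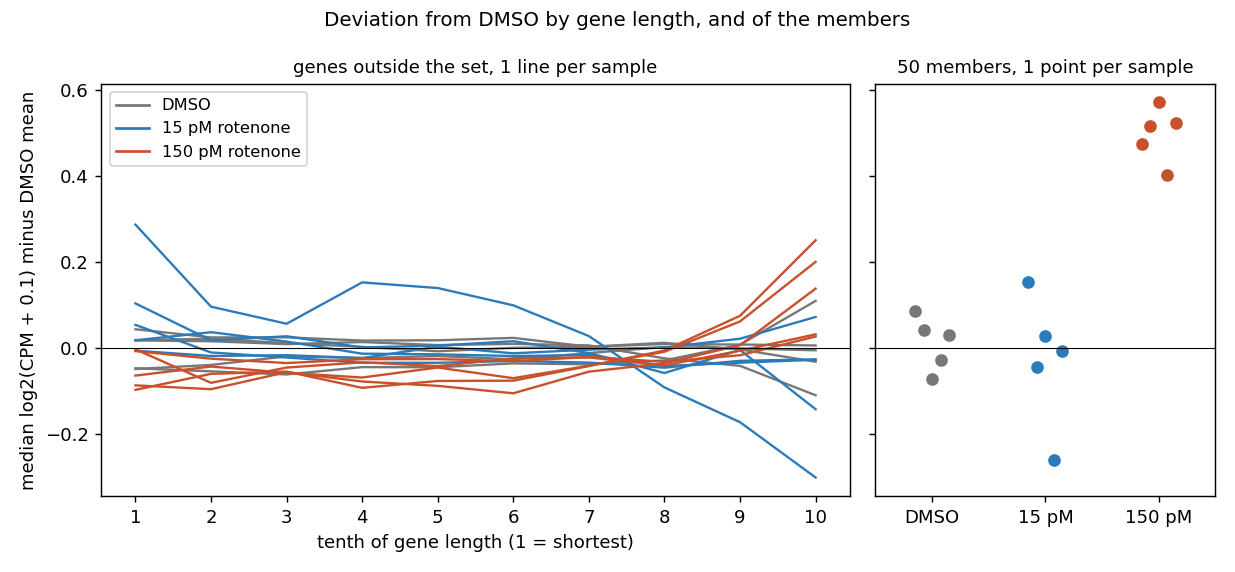
Left, median log2(CPM + 0.1) minus the DMSO mean for genes outside the set, in 10 groups of equal size by gene length (1 is the shortest), 1 line per sample; right, the same median over the 50 genes, 1 point per sample, on the same axis. In the longest group the 150 pM samples run from 0.03 to 0.25 and the 15 pM samples from -0.30 to 0.07, and the 50 genes at 150 pM run from 0.40 to 0.57.

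When the trend with length was taken out of each sample, 46 genes met the rule, and 30 of the 50 were among them. All 46 genes had a median length of 3571 bases, against 5794 bases for the 50. The 30 genes that still met the rule had a median of 4511 bases and the 20 that no longer met it one of 7921 bases. The 16 genes that newly met it had a median of 2558 bases. The step lowers long genes in 150 pM replicates 1, 3 and 5 and raises them in 15 pM replicates 4 and 5. It thus favours shorter genes by construction, and these lengths are a description only. With the same trend in the fit, 4 of the 50 genes were called higher at 150 pM than in DMSO (0.0712% of all genes) and 7 higher than at 15 pM (0.455%) by edgeR's test, and the median log2 fold change against DMSO was 0.48. The pair of genes with the widest gaps still met the rule, with ratios of 1.24 for Nfu_g_1_014394 and 1.22 for Nfu_g_1_009308, whereas Nfu_g_1_019198 with 0.994 and Nfu_g_1_000610 with 0.834 did not.

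Membership also depended on how libraries were scaled. With DESeq2 size factors 58 genes met the rule, 48 of the 50 among them, and with upper-quartile factors 65, with 49 of the 50. On plain library totals, with no factors, only 11 genes met it, 7 of the 50 among them, and the gap ratio of the 50 genes then had a median of 0.890. The TMM factors behind this difference ran from 0.90 to 1.096 in the 150 pM samples, from 0.833 to 1.19 in the 15 pM samples and from 0.973 to 1.14 in the DMSO samples, so the groups overlapped. Under all 4 scalings and with the length trend removed, 5 of the 50 genes met the rule, among them Nfu_g_1_014394 and Nfu_g_1_009308. The other 3 were the gene with the sixth widest gap, the gene of low abundance with the largest fold change, and a gene near the edge of the set with 12.1, 15.0, 13.5, 13.4 and 13.6 CPM at 150 pM, against 10.9, 10.4, 12.1, 10.9 and 9.26 CPM in DMSO.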

How the data were processed

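The deposited tables come from RNA-seq libraries of killifish skin, prepared with an unstranded TruSeq RNA v2 kit per the labels' protocols. The submitters' processing notes name CASAVA 1.8.2, STAR 2.4.1d and featureCounts 1.4.6-p4. Neither the genome build and annotation nor the treatment of shared reads is stated in the sources used here, which leaves counts of near-identical or overlapping genes uncertain. The authors deposited raw counts and RPKM for the same 26739 genes. The deposited RPKM fit the counts only when the 15 library totals are repeated down the rows of the table (100% of 3936 well-covered genes then gave 1 length within 1%, against 0% with own totals), so RPKM served for gene lengths only.

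Counts were tested with edgeR 4.0.16 in R 4.3.3: filterByExpr (minimum count 10, minimum total 15; 18253 genes), TMM factors, 1 quasi-likelihood fit of all 15 samples with a mean per group, and Benjamini-Hochberg adjustment over all genes. Identifiers were printed for the 2 genes with the widest gap and for the 2 with the smallest p among those lower at 15 pM. The members, lists and tests were chosen with earlier results of these data known. The length trend was the median deviation of log2(CPM + 0.1) from a gene's mean in 20 bins of length. The edgeR fit and the membership rule were tested on simulated data, and the other steps were not. Alternatives used DESeq2 1.42.0, limma 3.58.1, other factors, filters and samples. No identical libraries were found.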

Additional observations from a re-analysis of the deposited data

Results flagged for a closer look

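In 27 groups of 5 values, covering sample properties and the 4 genes with printed identifiers, 5 held a sample far from the other 4. A rate of about 1 in 20 would hold for unselected, independent groups of normally distributed values. These groups are not independent, and the 4 genes were picked from the same values, so the count cannot be set against that rate. Over the 50 genes in the 3 groups, 12 of 150 sets of 5 values held such a sample. The share over all genes is not given here, so this count is a description only. The total count of 150 pM replicate 2 was 28314659, against 23983152 to 24878602 in the other 150 pM samples. The TMM factor of DMSO replicate 5 was 1.14, against 0.973 to 1.013 in the other DMSO samples. For Nfu_g_1_009308, DMSO replicate 2 had 6.44 CPM, against 4.44 to 4.98 CPM in the other DMSO samples, and this value set the ceiling that the 150 pM samples had to pass. For the same gene, 15 pM replicate 4 had 2.32 CPM, against 5.04 to 6.04 CPM in the other 15 pM samples. For Nfu_g_1_019198, 150 pM replicate 5 had 45.3 CPM, against 34.1 to 36.5 CPM in the other 150 pM samples.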

How the results depend on the processing

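Leaving out the 15 pM replicates 1 and 4 together and removing the length trend were chosen after seeing the data. The number of genes that met the rule was 11 on plain library totals, 153 without both 15 pM replicates, and 52 to 157 with 1 sample left out, where fewer samples have to stand apart (157 without DMSO replicate 1, 89, 110 and 76 without 15 pM replicates 1, 4 and 5, and 94, 110 and 108 without 150 pM replicates 1, 2 and 4). The count of the 50 genes called at 15 pM against DMSO was 1 by DESeq2 (8.36% of all genes), by limma-voom (10.6%) and without both replicates (3.27%), and 0 to 1 with 1 sample left out (1 without 15 pM replicate 2, 3.55%); 1 of 50 genes is 2%. The median log2 fold change at 15 pM was -0.0011 by limma-voom, -0.076 without both replicates and -0.12 to -0.0038 with 1 sample left out. The number called higher at 150 pM than in DMSO was 23 by DESeq2 (1.31% of all genes), 46 by limma-voom (6.18%), 24 in a fit of the 2 groups (1.57%), 19 without both replicates (0.910%), and 0 to 19 with 1 sample left out (5 without 15 pM replicate 1, 0.0705%, and 6 without 15 pM replicate 5, 0.0759%). Against 15 pM it was 5 with no filter (0.308%), 41 by DESeq2 (4.57%), 36 by limma-voom (3.74%), 0 in a fit of the 2 groups (0.101%), 25 without both replicates (2.37%), 7 without the length trend (0.455%), and 0 to 22 with 1 sample left out. These were 8, 3 and 7 without DMSO replicates 3, 4 and 5 (0.466%, 0.168% and 0.436% of all genes), 0, 0 and 7 without 15 pM replicates 2, 3 and 5 (0.229%, 0.0595% and 0.385%), and 1, 4 and 0 without 150 pM replicates 1, 2 and 3 (0.0871%, 0.396% and 0.0541%). For Nfu_g_1_009308 the change at 15 pM turned positive by limma-voom (0.016), without DMSO replicate 2 (0.015), without 15 pM replicate 4 (0.10) and without both replicates (0.14), never past the threshold, and ran from -0.15 to 0.10 with 1 sample left out. The cause of these shifts was not tested. The other 3 genes with printed identifiers kept their direction in all 25 alternatives. Title numbers are shared by the DMSO and 15 pM samples only. Same-numbered samples correlated from -0.36 to 0.38, and none correlated best with its own number. These few correlations gave no sign that the numbers pair samples, but they cannot exclude it. With these numbers as a replicate block, 0 of the 50 genes were called at 15 pM, where 0.0113% of all genes were, and the median was -0.09. At the gap the Poisson intervals overlapped for 47 of the 50 genes, among them 1 gene with 4139 counts at 150 pM and 4367 in DMSO. The part that depth plays in this was not tested.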

Other observations

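The 78 genes lowest only at 15 pM, cut by the same rule, were also long, with a median of 4253 bases and 46.2% over 5000 bases, whereas the 93 lowest only in DMSO had a median of 2715 bases. Among the DMSO and 15 pM samples, with group means taken out, pairs of the 50 genes had a median correlation of log2 CPM of 0.21 over 10 samples, against -0.0068 for pairs in a regular sample (1 gene in 5) of those that could have entered. Without 15 pM replicate 4 the medians were 0.15 and -0.005 over 9 samples. These values share libraries and scaling, and the rule used them to set its ceiling. The comparison genes were not matched to the 50 genes for length or abundance. The correlations are given as a description.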
